A study of Mus musculus with 6 samples.

Results

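The genes encoding the proteins of the cytosolic ribosome were examined in human cells in which Rbfox1 was induced. Genes were chosen by symbol, as RPL or RPS followed by a number (with an optional A, X or L), RPLP0 to RPLP2, or RPSA. RPS24 was left out by the rule, and a gene needed at least 60 expected counts summed over the 6 samples. Of 58870 genes in the files 80 had such a name and 78 passed, 47 of the large subunit and 31 of the small subunit. RPL3L, with 55 counts, was just below the minimum and RPL10L, with 6 counts, far below it. The lowest members were RPL39L with 7856 and RPS27L with 26380 counts. The 77-5 cells sequenced here are 1 clone of T-REx-293 in which a mouse TrkB (Ntrk2) minigene, made from a BAC, was placed. The T-REx-293 line is derived from HEK293, a human embryonic kidney line, and carries the tetracycline repressor, and the cells had been engineered to express Rbfox1 under doxycycline control. The minigene itself is driven by a synthetic CAG promoter and not by doxycycline. Untreated cells gave 3 samples (No Dox), and 3 more came from cells given doxycycline for 48 h at 0.5 mg/ml per the labels (Dox), and figure legends of the study give the dose in micrograms per ml. All 6 samples are of the same clone and carry both the minigene and the inducible Rbfox1, and the effects of doxycycline and of Rbfox1 cannot be told apart. The labels name mouse as the organism, but the genes in the files are human.

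Ribosomal proteins are made in the cytoplasm, imported into the nucleolus and assembled with ribosomal RNA, which RNA polymerase I transcribes with the exception of the 5S species. Their mRNAs are short and among the most abundant of a growing cell, and most begin with a terminal oligopyrimidine (TOP) tract through which the mTOR pathway controls their translation. The mRNAs of several translation factors carry the same tract, and LARP1 is a protein that binds it. Some ribosomal proteins have a second, closely similar gene (a paralog), such as RPS27L for RPS27 and RPL39L for RPL39.

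Total expected counts were 59822964 to 65774104 per sample, and members held 7856 to 1065481 counts each over the 6 samples, with a median of 331709. RBFOX1 rose from 7.53 ± 0.79 TPM (SD, n = 3) to 188.3 ± 1.8 TPM, a log2 fold change of 4.55 ± 0.06 (SE, edgeR adjusted p = 7.6e-18). TPM is transcript abundance scaled for length and sample total. Of the markers of HEK293-type cells, VIM, LIN28B and NEFL were at 37.6 TPM or more in both groups, whereas NEFM was at 0.55 and 1.15 TPM. PTPRC, CD3E, ALB and MYH7, markers of other cells, were each at a mean of 0.30 TPM or less, and COL1A1, of fibroblasts, was at 4.55 TPM in No Dox and 4.60 in Dox. Nothing in the sources says whether the samples of a group were separate cultures, so p-values measure the spread between these samples, which may be technical. In bulk RNA, fewer cells and less RNA per cell cannot be told apart.

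The members together took up a slightly larger share of the RNA in Dox. In No Dox they held 7.19%, 7.03% and 7.07% of all expected counts, and in Dox 7.37%, 7.41% and 7.42%. Every Dox sample was above every No Dox sample, and the mean went from 7.10 ± 0.08% to 7.40 ± 0.03% (SD, n = 3), a ratio of 1.04 or 0.06 on the log2 scale. On the same scale of total counts, the log2 fold change of the median gene was 0.05, a difference of similar size. The ratio was 1.04 for the large and for the small subunit alike, and the count ratio of large to small subunit was 1.57 in both groups, with a range over samples of 1.57 to 1.58. On the TPM scale the members held 21.3 ± 0.16% in No Dox and 22.1 ± 0.03% in Dox. The share of mitochondrially encoded genes also went up, from 3.31 ± 0.05% to 3.66 ± 0.05% of counts, and with those genes left out of the total the members went from 7.34 ± 0.08% to 7.68 ± 0.03%.

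Single members differed over a wide range of levels. On the TPM scale, RPL39 was highest with a mean of 6442 ± 180 (SD, n = 3) in No Dox and 6637 ± 113 in Dox, and these groups overlapped. RPS18, a protein of the head of the small subunit, was at 5831 ± 42 and 6347 ± 21, and RPS2, near the entry of the mRNA channel, at 5848 ± 118 and 6103 ± 149. In No Dox the order of RPS2 and RPS18 was within their spread. A total of 72 members were above 1000 TPM in both groups, with a median over all 78 of 2540 in No Dox and 2557 in Dox. The lowest levels were those of the paralog genes RPL39L, at 50.6 ± 3.2 and 57.9 ± 0.83, and RPS27L, at 165.0 ± 4.2 and 210.7 ± 2.4, followed by RPS28 at 635.5 ± 14.7 and 639.1 ± 15.3. RNA for RPL39L was thus far below that for RPL39, which encodes the form found in most ribosomes.

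**Figure D1:**
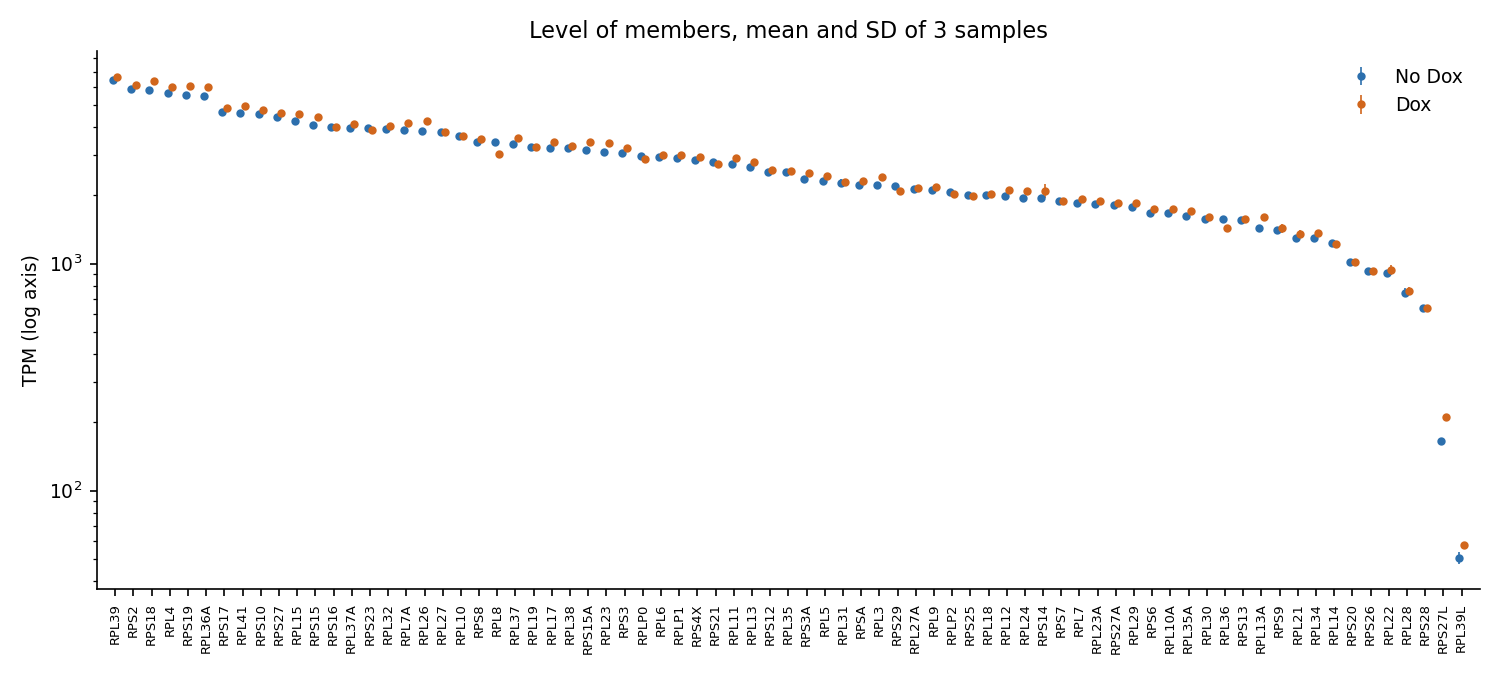
Level of the members shown in TPM (log axis) as mean and SD of 3 No Dox (blue) and 3 Dox (orange) samples, ordered by the No Dox mean. RPL39 is highest at 6442 TPM in No Dox, and RPS27L and RPL39L stand apart at the low end at 165.0 and 50.6 TPM.

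The next comparison asked which members differ between Dox and No Dox. Changes were small: 14 members rose, 13 fell and for 51 the edgeR test did not pass an adjusted p of 0.05. That is 17.9% of members higher and 16.7% lower, beside 24.9% higher and 26.5% lower among the 18264 genes tested, or 51.4% in either direction. Of the large subunit 10 rose and 7 fell, and of the small subunit 4 rose and 6 fell. The median log2 fold change was 0.01 (quartiles -0.03 and 0.05) for the members and 0.00 (quartiles -0.16 and 0.21) for all genes. The log2 fold change was within 0.1 of 0 for 70 members, and for 77 the 95% interval lay within a 1.2-fold change. When a change of more than 1.2-fold was tested, 1 member was higher and 0 lower, beside 7.3% and 6.01% of all genes. Normalized counts of Dox and No Dox did not overlap for 31 members (39.7%), beside 58.2% of all genes, and of those 31, 16 were higher and 15 lower in Dox.

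These directions depend on how libraries are scaled, since changes of this size are near the difference between scalings. With library size only in place of TMM, which balances most genes around no change, the members moved up by 0.05 on the log2 scale and the split was 40 higher and 4 lower (51.3% and 5.13%), beside 31.1% and 20.5% of all genes. It was 30 and 4 with upper quartile scaling, beside 29.7% and 21.8% of all genes, and 34 and 4 with limma on TPM, beside 22% and 20%. Of the 14 rises, 13 passed under each of 6 other scalings or units, RPL22 being the exception, whereas of the 13 falls 4 did, among them RPL8, RPL36 and RPS29. These 6 moved the members up or left their median near that with TMM, so they cannot show that rises are firmer than falls. Without the low-count filter, which is not among the 6, the median was -0.0017, with 11 higher and 16 lower (14.1% and 20.5%), beside 14% and 16.7% of all genes. That fit kept 11 of the 14 rises and all 13 falls. The counts of calls also moved with single samples, to 8 higher without No Dox replicate 3 (beside 21.6% of all genes) and to 8 lower without Dox replicate 2 (beside 23.6%). RPS27L, RPL13A, RPL15, RPL26, RPL3, RPL37 and RPS18 passed as higher, and RPL8, RPL36 and RPS29 as lower, under each of the 6 and without any 1 sample. RPS29 passed only narrowly with library size only (edgeR adjusted p = 0.049).

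**Figure D2:**
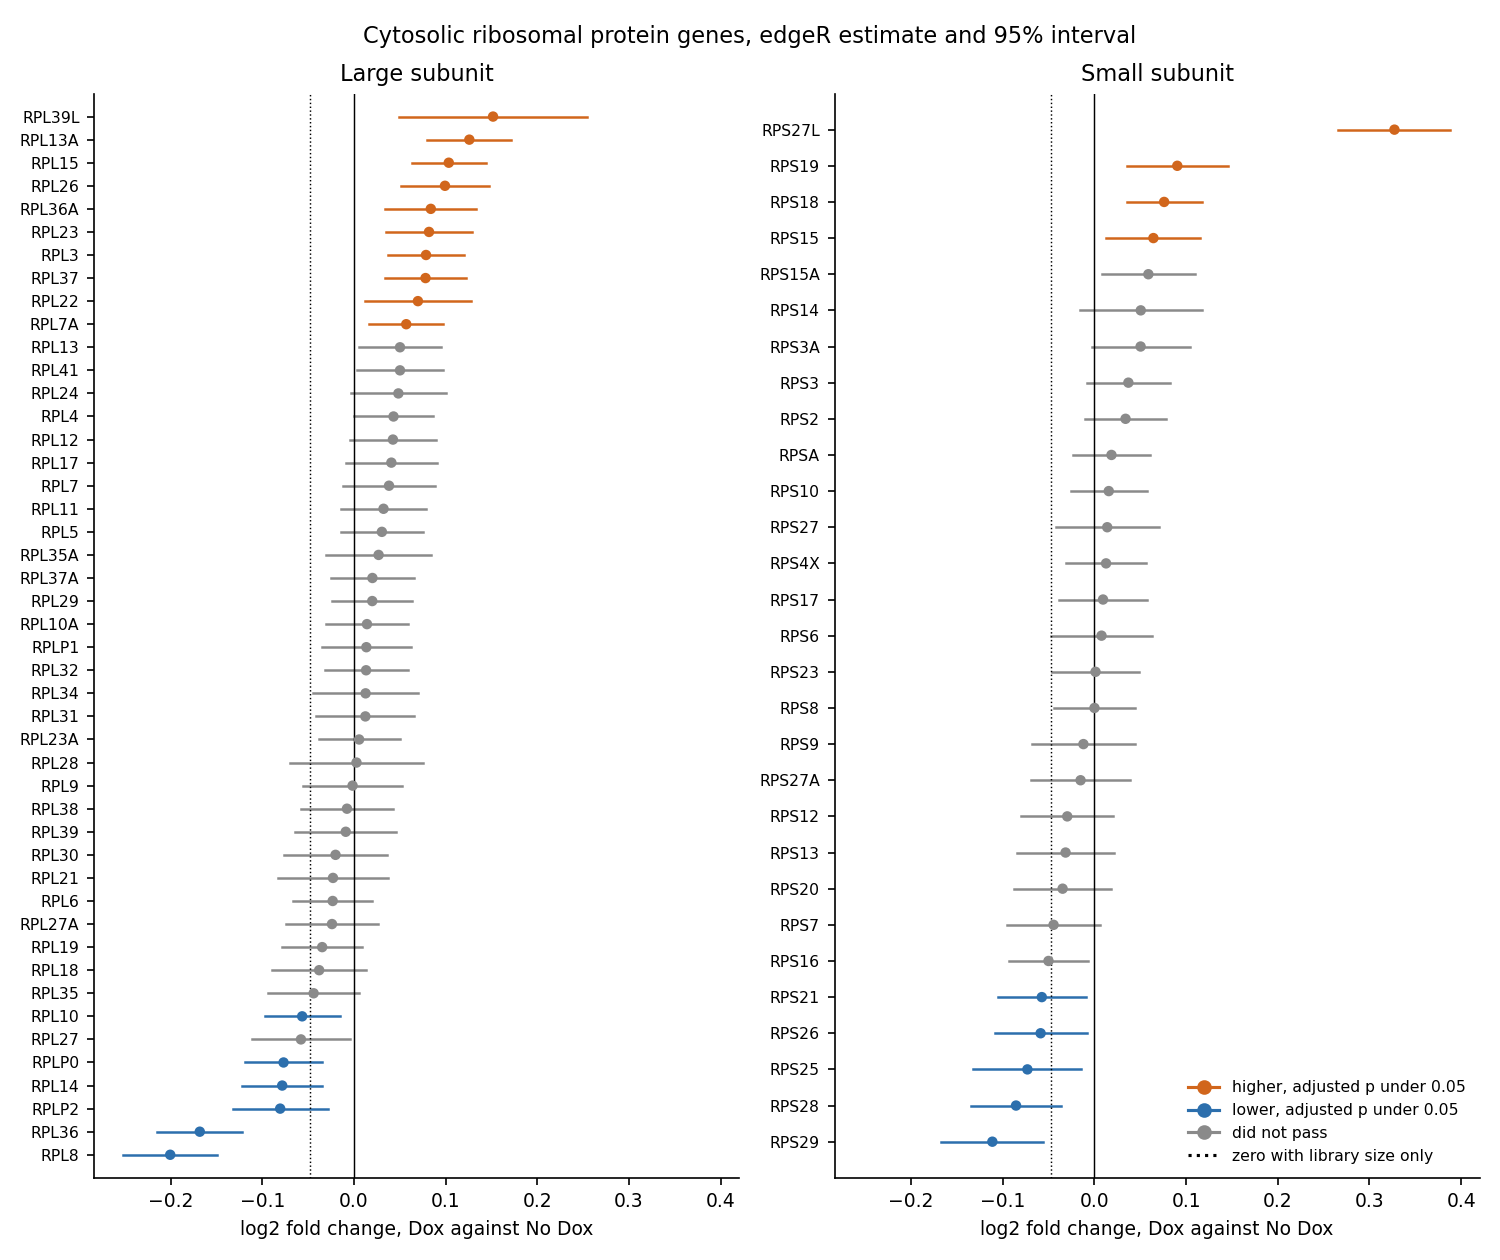
Log2 fold change of Dox against No Dox for the members shown (edgeR estimate, line 95% interval), large subunit left and small subunit right. Orange members were higher and blue lower at an adjusted p under 0.05, and the dotted line marks where 0 would lie with library size only. RPS27L at 0.33 and RPL8 at -0.20 are the ends of the range.

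RPS27L (ENSG00000185088.14) rose most. It is a paralog of RPS27 and is known as a target gene of p53. Its normalized counts, given here as TMM-scaled CPM, were 62.2, 60.2 and 61.0 in No Dox and 76.3, 76.7 and 77.2 in Dox. The 3 Dox samples lay close together and far above No Dox, with a log2 fold change of 0.33 ± 0.03 (SE, edgeR adjusted p = 1.1e-07). Its partner RPS27 had a log2 fold change of 0.01 ± 0.03 and did not pass (edgeR adjusted p = 0.69). RPL39L (ENSG00000163923.10), a paralog known for its expression in the testis, was at 21.0, 18.7 and 18.7 CPM in No Dox and at 21.8, 21.8 and 21.3 in Dox. No Dox replicate 1 came close to the Dox samples without reaching them. The log2 fold change was 0.15 ± 0.05 (edgeR adjusted p = 0.015), and it did not pass without No Dox replicate 2 (adjusted p = 0.088) or replicate 3 (adjusted p = 0.087). RPL39 did not pass, with a log2 fold change of -0.01 ± 0.03 (edgeR adjusted p = 0.80).

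Among members without such a low level, RPL13A rose most. RPL13A, which is also known outside the ribosome as part of a complex that silences translation of inflammatory mRNAs, had 964.2, 944.0 and 926.5 CPM in No Dox and 1040.1, 1033 and 1020.3 in Dox. Groups did not overlap, and the log2 fold change was 0.13 ± 0.02 (SE, edgeR adjusted p = 1.4e-04). RPL15 had 1864, 1846 and 1820.1 in No Dox and 1971, 1987 and 1984 in Dox. Here too every Dox sample was higher, by 0.10 ± 0.02 on the log2 scale (edgeR adjusted p = 2.7e-04). RPL26, known to bind the mRNA of p53, went from 994.4, 948.6 and 964.2 to 1020.2, 1045 and 1049, with the same log2 fold change of 0.10 ± 0.02 (edgeR adjusted p = 0.0017).

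RPS19, RPL36A and RPL23 rose by 0.08 to 0.09 on the log2 scale. RPS19, the gene most often mutated in Diamond-Blackfan anaemia, was at 1132, 1179 and 1110.2 CPM in No Dox and 1244, 1221 and 1177 in Dox, so that the groups overlapped (edgeR adjusted p = 0.0082). RPL23, one of the proteins known to bind MDM2, was at 1010.2, 991.7 and 979.4 in No Dox and 1033, 1050.0 and 1072 in Dox without overlap (edgeR adjusted p = 0.0052). Each of these calls was lost without 1 sample: RPS19 and RPL23 without No Dox replicate 3 (edgeR adjusted p = 0.075 and 0.054) and RPL36A without No Dox replicate 2 (edgeR adjusted p = 0.056). RPL3, which reaches close to the catalytic centre of the ribosome, rose by 0.08 ± 0.02 (edgeR adjusted p = 0.0032).

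Of the members described here, RPL8 and RPL36 fell most. RPL8 (ENSG00000161016.17), a protein of the core of the large subunit near the peptidyl transferase centre, had 1578, 1574 and 1545 CPM in No Dox and 1392, 1386 and 1309.7 in Dox. All Dox samples were lower, Dox replicate 3 most, with a log2 fold change of -0.20 ± 0.02 (SE, edgeR adjusted p = 3.5e-06). RPL36 (ENSG00000130255.13) went from 498.2, 491.8 and 498.6 to 445.3, 444.4 and 435.1, a log2 fold change of -0.17 ± 0.02 (edgeR adjusted p = 8.4e-06). In both genes the lowest No Dox sample was above the highest Dox sample.

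RPS29, a zinc-binding protein of the small subunit, fell less, from 203.5, 195.2 and 201.0 CPM to 180.9, 187.2 and 187.1 (log2 fold change -0.11 ± 0.03, edgeR adjusted p = 0.0021). The groups were again apart. RPS28 and RPL14 fell by 0.09 and 0.08 on the log2 scale (edgeR adjusted p = 0.0054 and 0.0044). These smaller falls did not pass with library size only (edgeR adjusted p = 0.18 and 0.21), and RPS28 was 0.01 higher on the log2(TPM + 1) scale (limma adjusted p = 0.82).

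**Figure D3:**
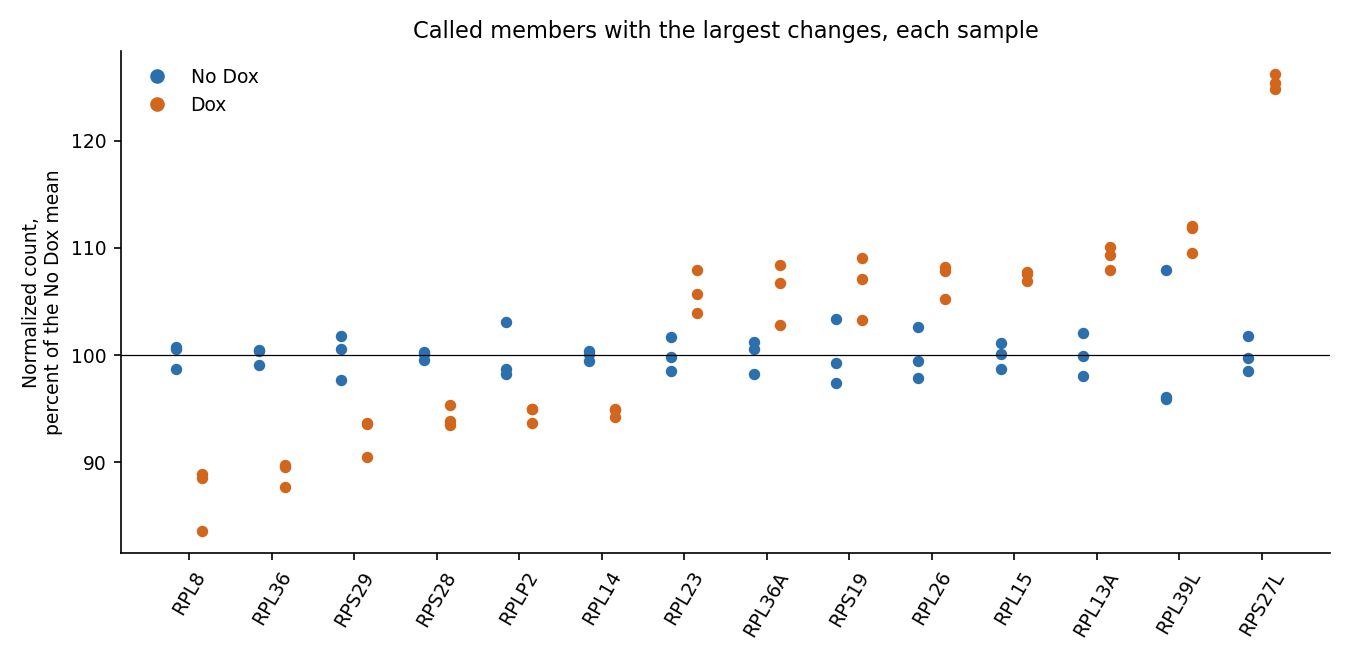
Normalized count in each sample as percent of the No Dox mean for the 8 largest rises and most of the 8 largest falls among called members, No Dox blue and Dox orange. The axis does not start at 0. RPS27L stands above all others, the Dox samples of RPL8 and RPL36 lie lowest, and RPS19 is the gene shown whose groups overlap.

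The core proteins of the stalk, which recruits translation factors to the large subunit, are encoded by 3 members, of which 2 fell and 1 did not pass. RPLP0, the base of the stalk, had 1945, 1911 and 1889 CPM in No Dox and 1811, 1803 and 1833 in Dox, and RPLP2 went from 406.8, 405.0 and 425.0 to 391.7, 386.2 and 391.8. Both fell by 0.08 on the log2 scale (edgeR adjusted p = 0.0039 and 0.011), with no overlap between groups. RPLP1, the partner of RPLP2, overlapped between groups and had a log2 fold change of 0.01 ± 0.02 (edgeR adjusted p = 0.65). RPL12, which sits at the base of the stalk, had 0.04 ± 0.02 (edgeR adjusted p = 0.12). With library size only, neither RPLP0 nor RPLP2 passed (edgeR adjusted p = 0.21 and 0.28) and RPLP1 was called higher (edgeR adjusted p = 0.032). RPLP2 also did not pass without No Dox replicate 3 (adjusted p = 0.087) or Dox replicate 2 (adjusted p = 0.060).

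RPL5 and RPL11, which with 5S ribosomal RNA bind and restrain MDM2 when ribosome assembly is disturbed, had log2 fold changes of 0.03 ± 0.02 each and did not pass (edgeR adjusted p = 0.25 and 0.23). RPS6, the substrate of the S6 kinases, was at 1073, 1004 and 1072 CPM in No Dox and 1037, 1064 and 1065 in Dox, so the groups overlapped (log2 fold change 0.01 ± 0.03, edgeR adjusted p = 0.83). Neither did RPSA, RPL10A, RPS4X or RPS27A pass, the last of which is made as a fusion with ubiquitin. Their log2 fold changes lay between -0.02 and 0.02. With library size only, RPL5, RPL11, RPL12, RPSA, RPL10A and RPS4X were called higher (edgeR adjusted p = 0.0024 to 0.019). RPL22, an RNA-binding protein of the large subunit, rose by 0.07 ± 0.03 (edgeR adjusted p = 0.042), with overlapping groups and no call without replicate 2 or 3 of either group (adjusted p = 0.082 to 0.25).

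Further ribosomal protein genes have names that the rule does not take. Of 9 such genes, some of them readthrough genes, 5 fell and 1 rose, with a median log2 fold change of -0.07. Among all genes tested 26.5% were lower and 24.9% higher. Among other genes of at least 100 TPM 55.8% were lower, with a median of -0.09, but not all of the 9 reach that level. In No Dox RPL22L1 was at 32.3 TPM and RPL17-C18orf32 at 10.9 TPM. FAU, which encodes RPS30 fused to a ubiquitin-like protein, fell by 0.16 on the log2 scale (edgeR adjusted p = 6.6e-05). RPL26L1 and RPL22L1, paralogs of RPL26 and RPL22, had log2 fold changes of -0.29 each (edgeR adjusted p = 1.1e-06 and 0.0012), and the readthrough gene RPL17-C18orf32, which can share reads with RPL17, had 0.35 ± 0.13 (edgeR adjusted p = 0.032).

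The share that a paralog held within its pair was higher in Dox for some pairs and lower for others. RPS27L made up 3.72%, 3.60% and 3.51% of the TPM of its pair in No Dox and 4.42%, 4.36% and 4.32% in Dox. RPL26L1 made up 3.42%, 3.44% and 3.48% in No Dox and 2.64%, 2.63% and 2.66% in Dox. RPL22L1 went from 3.45 ± 0.12% to 2.88 ± 0.08% (SD, n = 3), RPL36AL from 3.97 ± 0.05% to 3.56 ± 0.05% and RPL39L from 0.779 ± 0.028% to 0.865 ± 0.026% of the pair. Groups were apart in these 5 pairs and overlapped for RPL7L1 and RPL7, at 10.94 ± 0.39% and 10.98 ± 0.38%. For each of the 5 pairs the two-sided exact permutation test on log count ratios had p = 0.1, which is as low as groups of 3 can give, or 0.12 adjusted over the 6 pairs, so this test cannot reach 0.05 with groups of 3. The pairs were set after values had been seen.

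Genes that make ribosomes, without being part of them, were lower in Dox. Of 40 ribosome biogenesis genes 36 fell and 0 rose by edgeR, with a median log2 fold change of -0.28, beside 26.5% of all genes lower. Of non-member genes of at least 100 TPM, a level that not all of the 40 reach, 55.8% were lower, with a median of -0.09. NOP14, a factor of the small subunit processome, fell from 58.8 ± 0.92 to 38.0 ± 0.86 TPM (SD, n = 3), a log2 fold change of -0.67 ± 0.03 (SE, edgeR adjusted p = 1.3e-11). The nucleolar methyltransferase gene FBL fell by 0.37 on the log2 scale and NPM1, which encodes nucleophosmin, by 0.12. Of 14 genes of RNA polymerase I and its factors 9 fell and 0 rose, most in CD3EAP with -0.44 ± 0.04 (edgeR adjusted p = 1.2e-07), and of 8 chaperones that carry ribosomal proteins 6 fell and 0 rose, most in PDCD2L with -0.35 ± 0.03 (edgeR adjusted p = 7.9e-08). RRS1 is in both the biogenesis and the chaperone list. With library size only 35 biogenesis genes were lower. With TMM, 15 were lower by more than 1.2-fold, beside 6.01% of all genes. MYC, a transcription factor known to drive ribosome biogenesis genes, fell from 127.9 ± 3.6 to 59.3 ± 1.4 TPM, and its part in these values was not tested.

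Genes other than ribosomal protein genes whose mRNAs carry a TOP tract had a median log2 fold change of 0.00, with 3 of 16 higher and 4 lower, beside 24.9% and 26.5% of all genes. All 16 are above 100 TPM. Of non-member genes of at least 100 TPM, 15.3% were higher and 55.8% lower, with a median of -0.09. TPT1 rose by 0.17 ± 0.02 (edgeR adjusted p = 2.0e-05), and EEF1B2, an exchange factor for the elongation factor EEF1A1, had -0.48 ± 0.03 (edgeR adjusted p = 5.5e-10). EEF1A1 itself had 5627 ± 95 TPM in No Dox and 5925 ± 68 TPM in Dox, without passing (edgeR adjusted p = 0.15). Of 20 other initiation factors 4 rose and 12 fell, with a median of -0.09, which is near the values given above for genes of at least 100 TPM. EIF4G2 rose by 0.42 ± 0.02 and EIF3B had -0.45 ± 0.02 (edgeR adjusted p = 1.9e-10 and 1.5e-10). Of 10 regulators of TOP mRNAs and S6 kinases 1 rose, TIA1 with 0.38 ± 0.03, and 6 fell, most RPS6KB2 with -0.58 ± 0.03 (edgeR adjusted p = 8.7e-08 and 5.2e-10). LARP1 fell from 166.6 ± 2.9 to 140.2 ± 4.9 TPM.

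**Figure D4:**
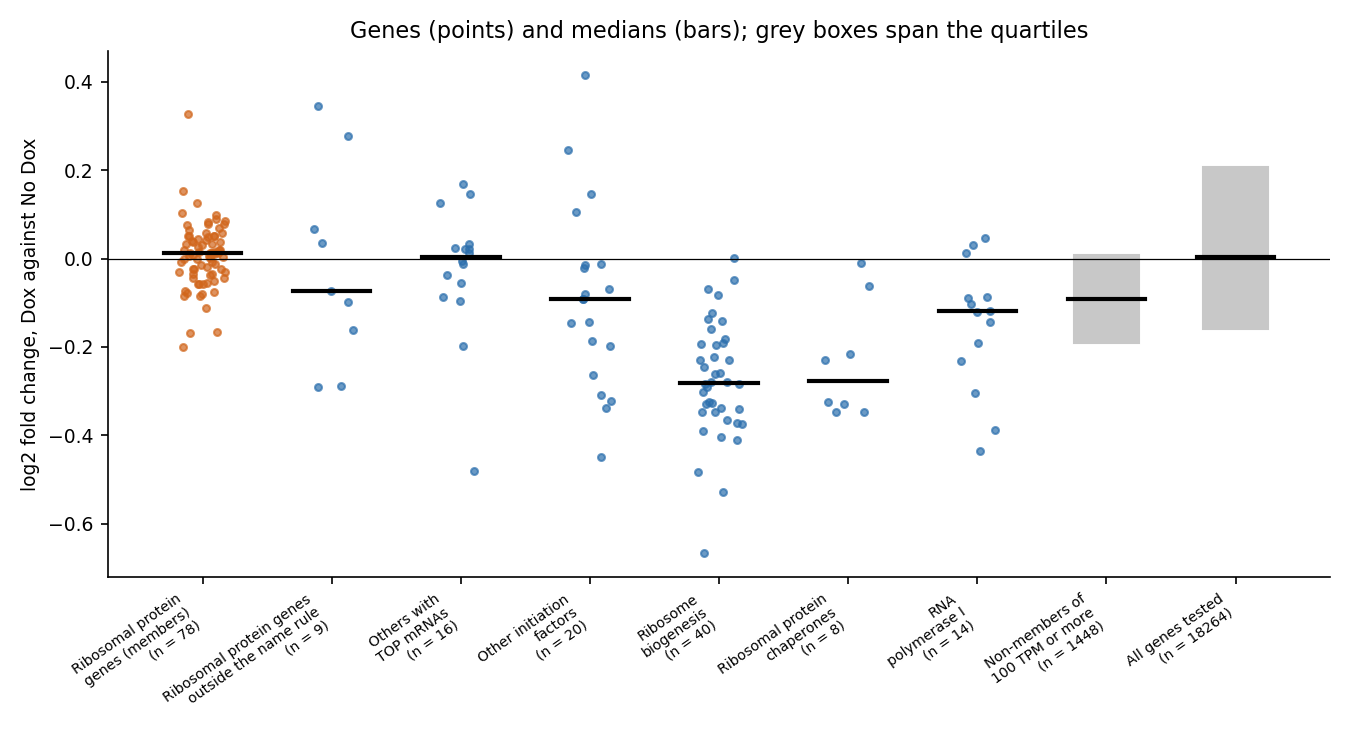
Log2 fold change of Dox against No Dox (edgeR) for the 78 members and for genes of 6 other lists (points), with the median (bar). Grey boxes show the quartiles of 1448 other genes of at least 100 TPM and of all 18264 genes tested. The members cluster around a median of 0.01, and the biogenesis genes around -0.28.

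Members were also set beside other abundant genes, since they are abundant themselves. Of 1448 other genes with at least 100 TPM, 15.3% were higher and 55.8% lower, and their median log2 fold change was -0.09. Of these, 311 were under 1000 bases long on average, with 31 higher, 176 lower and a median of -0.11. The 61 members under 1000 bases had 8 higher and 10 lower, with a median of 0.01, and the 17 longer members 6 higher and 3 lower, with a median of 0.03. Members and other genes were not matched on level: 72 members were above 1000 TPM in both groups, while the other genes needed only 100 TPM. The difference between these sets was not tested.

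Reads of some members can be confused with those of pseudogenes, which are copies of the mRNA in the genome. Of the counts of RPL23A and its pseudogenes 38.9% were assigned to pseudogenes, and of those of RPS2 14.1%. The share was 4.73% for RPL21, 4.31% for RPL22 and 3.36% for RPSA, so levels of these members are uncertain. Of 86 pseudogenes that passed the filter 15 were higher, 3 lower and 68 not called, with a median log2 fold change of 0.13. Among all genes tested, 24.9% were higher and 26.5% lower. RPL22P1 fell by 0.18 (edgeR adjusted p = 0.0018), while RPL22 rose. With members and pseudogenes pooled, 14 members were higher and 11 lower (17.9% and 14.1%, beside 25.3% and 26.4% of all genes). RPL22 did not pass in that fit (edgeR adjusted p = 0.077).

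The final comparison asked whether the isoforms of a member were used in different proportion. The 78 members had 785 of the 208621 isoforms in the files, with a median of 9 each, of which 688 were tested. One isoform dominated in most members: it held at least 90% of the gene in 41, between 50% and 90% in 26 and less in 11, and it was the same isoform in all 6 samples for 76. The share of this leading isoform changed by under 2 percentage points in 69 members. The median size of change was 0.47 points, beside 3.35 for all genes and 1.29 for other genes of at least 100 TPM. Its share was higher in Dox in 54 of 78 members (69.2%), beside 49.3% of all genes. The largest change was in RPL21-202, from 60.2 ± 2.8% to 55.1 ± 1.0% (SD, n = 3), which did not pass (limma adjusted p = 0.15).

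Isoform usage changed in 24 of 78 members (30.8%), beside 17.7% of all genes (limma on the log2 ratio of an isoform to the rest of its gene, adjusted p under 0.05). None of these changes reached 5 percentage points, as they did in 12.2% of all genes. Per isoform, 37 of the 688 tested in members were called, a share near the 5.7% of all isoforms tested. A gene is called when any of its isoforms passes. Members had 688 isoforms tested in 78 genes, beside 66898 in 12328 genes, so the 30.8% and 17.7% rest on unlike numbers of isoforms per gene. Of the 37 called isoforms, 22 moved by less than 1 point. The number of members called was 10 to 12 when any 1 sample was left out, and it was 10 whichever Dox sample was left out. These are 12.8% to 15.4% of members, beside 9.39% to 10.9% of all genes in the same fits, so the gap to all genes was narrower there. Among isoforms of at least 10% of their gene, 5 of 32 members (15.6%) were called, below the 18.8% of all genes. In abundance, 90 of the 688 isoforms changed by limma-voom, a share near the 12.6% of all isoforms. Of them 49 were higher, beside 6.19% of all isoforms, and 41 lower, beside 6.44%.

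RPL13 had the largest called change. RPL13-211, its leading isoform, held 45.8%, 46.1% and 46.8% of the gene in No Dox and 41.7%, 42.5% and 41.6% in Dox (limma adjusted p = 0.039). The groups were apart by more than their spread, and RPL13-214 went the other way, from 15.4 ± 0.31% to 17.8 ± 0.11% (limma adjusted p = 0.049). The call for RPL13-211 was lost whichever sample was left out (limma adjusted p = 0.117 to 0.135). RPL13 as a gene did not pass, with a log2 fold change of 0.05 ± 0.02 (edgeR adjusted p = 0.060).

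In RPS21, a protein of the small subunit, the leading isoform lost share to another. RPS21-205 held 9.19%, 9.02% and 8.71% in No Dox and 12.99%, 13.0% and 12.5% in Dox (limma adjusted p = 0.0070). RPS21-201 fell correspondingly, from 90.6 ± 0.23% to 86.8 ± 0.29% (limma adjusted p = 0.0035). The groups did not overlap in either isoform. RPL6 showed the reverse, a rise of its leading isoform RPL6-201 from 86.1 ± 0.31% to 88.3 ± 0.21% (limma adjusted p = 0.012) with RPL6-202 going from 10.5 ± 0.33% to 8.45 ± 0.12%. The call for RPL6-201 held without No Dox replicate 1 and was lost without any other single sample (limma adjusted p = 0.053 to 0.067).

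RPS4X, the form of the protein encoded on the X chromosome, had the lowest adjusted p of all member isoforms. RPS4X-201 held 95.08%, 95.26% and 94.98% in No Dox and 96.95%, 97.0% and 97.2% in Dox (limma adjusted p = 3.3e-04). RPS4X-202, a shorter isoform, went from 3.25 ± 0.15% to 1.67 ± 0.15% (limma adjusted p = 0.0049) and RPS4X-204 from 1.57 ± 0.02% to 1.14 ± 0.03%. The gene as a whole did not pass, with a 95% interval of its log2 fold change from -0.03 to 0.06. RPS4X-201 kept its call under each alternative that could test it.

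The other named changes were of about 1 point. RPL15-204 went from 6.54 ± 0.20% to 8.08 ± 0.34% (limma adjusted p = 0.015), RPS10-209 from 90.7 ± 0.25% to 91.9 ± 0.22% (limma adjusted p = 0.050) and RPS26-203 from 93.4 ± 0.25% to 94.5 ± 0.05% (limma adjusted p = 0.034). RPL28-209 went from 0.64 ± 0.16% to 1.77 ± 0.04%, RPL31-203 from 1.62 ± 0.09% to 2.73 ± 0.17% and RPL17-212 from 0.90 ± 0.05% to 1.74 ± 0.12% (limma adjusted p = 0.018, 0.0064 and 0.0052). RPL22-206 fell from 1.66 ± 0.04% to 1.03 ± 0.03% (limma adjusted p = 0.0049). In all of these the Dox samples lay on one side of the No Dox samples. The calls for RPL15-204, RPS10-209 and RPS26-203 were lost whichever sample was left out (limma adjusted p = 0.050 to 0.067, 0.11 to 0.18 and 0.067 to 0.12), and that for RPL28-209 without any 1 of the Dox samples (limma adjusted p = 0.068 to 0.074).

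**Figure D5:**
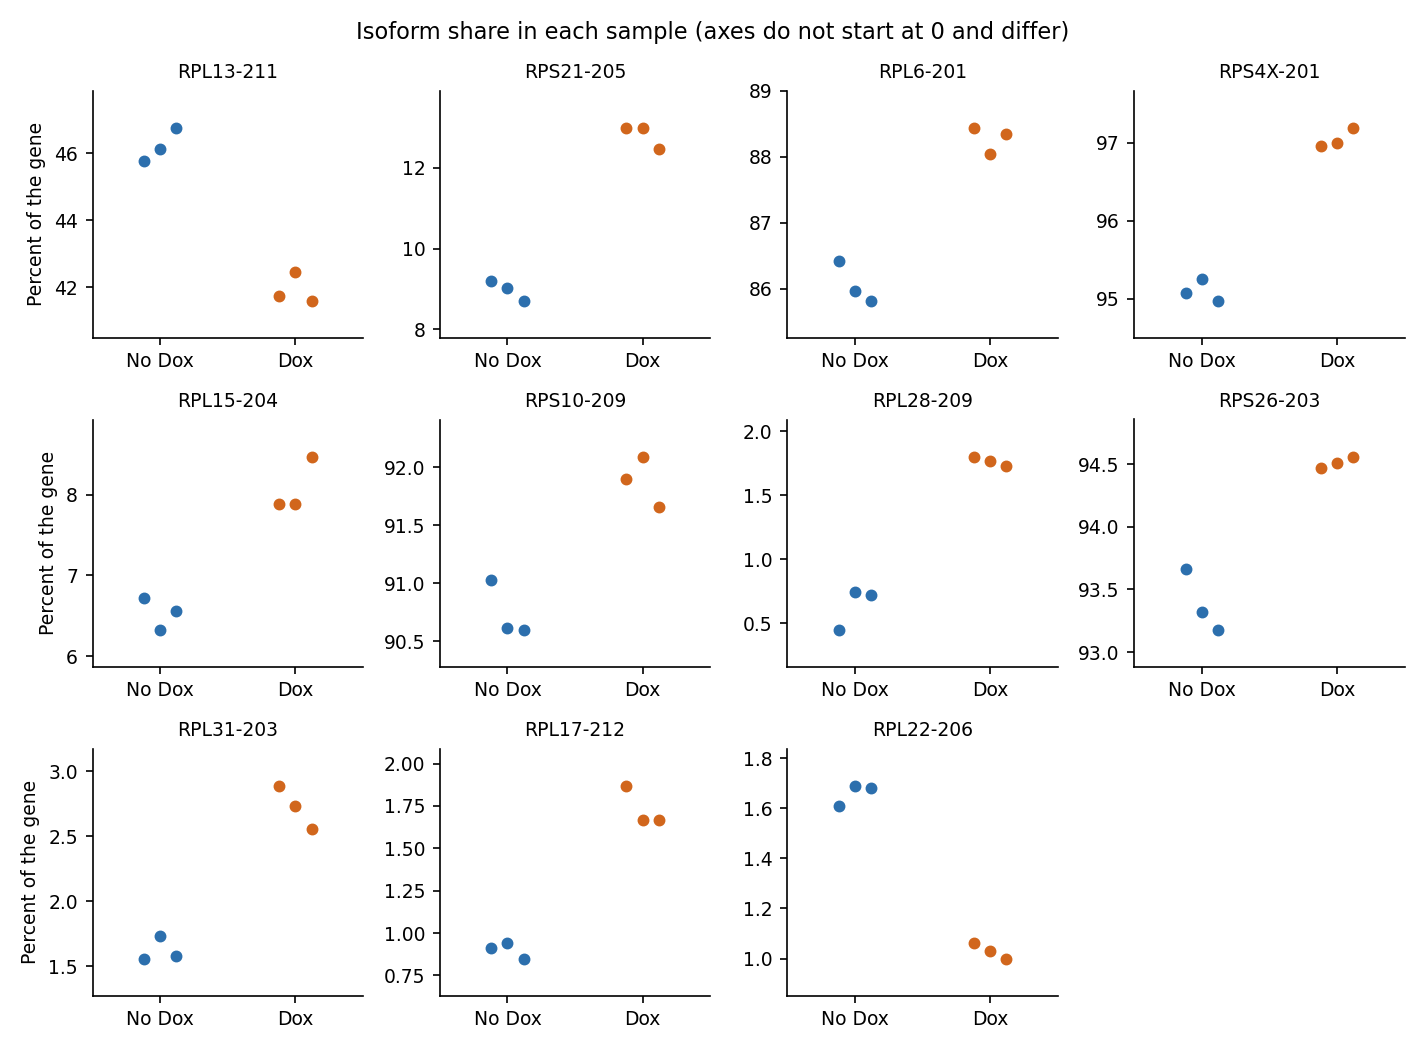
Percent of the gene held by the isoform with the largest called change in the members shown, in 3 No Dox (blue) and 3 Dox (orange) samples. Axes differ and do not start at 0. RPL13-211 falls from about 46.2% to 41.9%, RPS21-205 rises from 8.97% to 12.8%, and groups are apart in every panel.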

How the data were processed

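Per the labels and methods, reads of stranded mRNA libraries were trimmed by the authors (cutadapt), mapped to GRCh38 (STAR) and assigned to isoforms (RSEM). For tool versions, and for whether RSEM used strand: not given in the sources used here. Expected counts were deposited, which are RSEM estimates that are not normalized and divide shared reads among isoforms and similar genes. The deposited TPM values are scaled for isoform length and sample total, and the deposited isoform percent is the share of an isoform in the TPM of its gene.

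Expected counts were summed per gene, rounded, filtered with filterByExpr and tested with edgeR 4.0.16 (TMM, glmQLFTest) over all 18264 genes passing. All 78 members passed. Isoform abundance was tested with limma-voom (limma 3.58.1) over 72438 isoforms, and usage with limma on log2((isoform + 0.5) / (rest of gene + 0.5)) over 66898 isoforms of 12328 genes. Tests were two-sided with Benjamini-Hochberg adjustment over all features. R 4.3.3 and DESeq2 1.42.0 (alternative) were used, and scripts were tested on simulated data. Normalized counts are TMM-scaled CPM. Named were the 8 largest called rises and falls, members with set roles, the highest and lowest 3 by TPM, the largest called isoform change of 12 members and the largest called change of each list. Some others, such as RPL13, MYC, FBL, NPM1, EEF1A1, LARP1, pseudogenes and partner isoforms, were named after their values were seen. Some genes and isoforms that this rule names are not reported here, and figures leave them out. Members and lists were chosen with earlier results of these data known. Same-numbered samples deviated together weakly at most (r = 0.04, 0.01 and 0.09), beside r of -0.08 to 0.04 for differently numbered samples.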

Additional observations from a re-analysis of the deposited data

How the results depend on the processing

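Members higher and lower were 14 and 13 with TMM. They were 30 and 4 with upper quartile scaling (29.7% and 21.8% of all genes), 40 and 4 with library size only (31.1% and 20.5%), 34 and 4 with limma on log2(TPM + 1) (22% and 20%), and 1 and 0 against a 1.2-fold change (7.3% and 6.01%). The median log2 fold change of members was 0.01 with TMM, and 0.05002, 0.0602 and 0.0550 under the first 3 of these. Library size only moved the median of all genes to 0.05. On log2(TPM + 1), RPS28 and RPS26 changed sign, to 0.0081 and 0.0018 (limma adjusted p = 0.82 and 0.95). The cause was not tested. Without any 1 sample, higher members numbered 8 to 18 (10.3% to 23.1%, beside 21.4% to 23.8% of all genes). Lower members numbered 8 to 15 (10.3% to 19.2%, beside 23.3% to 26.2% of all genes), and the median of members was -0.0007 to 0.0194. DESeq2, RLE factors, TMM without the members, no filter and pooled pseudogenes kept both counts within 1.5 times. Without the filter they were 11 and 16 (14.1% and 20.5%, beside 14% and 16.7% of all genes), so members were not called less often than all genes there. The median of members in that fit was -0.0017. The rise in the members' share was 0.301 points of counts (0.269 to 0.346 without any 1 sample) and 0.796 points of TPM.

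Biogenesis genes lower in Dox numbered 36, and 15 against a 1.2-fold change. The list was rerun under alternatives that were added after seeing the data. Members with changed usage numbered 24 (30.8%, beside 17.7% of all genes). They numbered 5 of 32 with isoforms of at least 10 percent (15.6%, beside 18.8%, so that the order turned), 0 with a change of 5 points (beside 12.2%) and 10 to 12 without any 1 sample (12.8% to 15.4%, beside 9.39% to 10.9%). Isoforms changed in abundance numbered 90 of 688 (13.1%, beside 12.6% of all isoforms), 39 of 125 with the 10 percent minimum (31.2%, beside 26%), 153 of 688 with DESeq2 (22.2%, beside 21.5%) and 45 to 61 without any 1 sample (6.47% to 8.78%, beside 7.21% to 8.43%). With the replicate number as a block, 15 members were higher and 14 lower (beside 25.9% and 27.8% of all genes), 6 had changed usage (7.69%, beside 6.31%) and 65 isoforms changed in abundance (9.45%, beside 10%). The numbers name samples and are not known to pair them, and not every sample correlated best with its own number. RBFOX1 kept its call under DESeq2, the block and each left-out sample. RSEM divides shared reads among isoforms, so depth alone does not set the precision of isoform values.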
